A study of Rattus norvegicus with 12 samples.

Results

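Histone deacetylases, the acetyltransferases that oppose them, and the chromatin complexes in which both work were followed in cultured rat cerebellar granule neurons. The list had 35 genes, taken as the probe sets to which the array's gene table gives a listed symbol and no other. It reached 62 of the 20826 probe sets with a single symbol. These covered 33 genes, 19 with 1 probe set and 14 with more; no probe set was found under the symbols Hdac9 and Sirt1, which were not analysed here. A filter on dim probe sets removed 13 of the 62, and with them all 4 probe sets of Hdac10, so 32 genes entered the tests. Each gene was represented by its brightest probe set.

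The study measured total RNA from rat cerebellum cultures on 12 arrays in 4 groups of 3. Cultures in low potassium (LK) were taken at 3 h and 6 h, and cultures treated with the compound GW5074 (GW) at the same times. Low potassium removes the depolarisation that keeps granule neurons alive in culture, and GW5074 is known as an inhibitor of the kinase c-Raf. The labels give no strain, age or dose, do not state the potassium of the GW5074 cultures, and include no group kept in high potassium and no time before 3 h. They mark the arrays of a group A, B and C without saying whether these were separate cultures, so the p-values measure the spread between these arrays, which may be technical.

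DNA in the nucleus is wound on histones, and acetyl groups on the histone tails loosen that packing and recruit reader proteins. Acetyltransferases such as Ep300 and Crebbp add the groups, and they are removed by zinc-dependent histone deacetylases (HDACs, classes I, II and IV) and NAD-dependent sirtuins. Class I HDACs sit in nuclear corepressor complexes, while class IIa HDACs move between nucleus and cytoplasm with neuronal activity and repress MEF2 factors, which granule neurons need to survive. The other regulators on the list methylate DNA or histones, or slide and evict nucleosomes.

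Values per array are the deposited intensities, in the order A, B, C, and only the same probe set is compared between arrays. Counts of genes without overlap between groups use the normalised log2 values, which can differ from the deposited ones where arrays lie close. Changes are differences of mean log2(normalised intensity + 16) ± SE, with 3 arrays a group, and adjusted p is from limma after Benjamini-Hochberg adjustment over all 18625 probe sets past the filter. This scale understates the change of dim probe sets. "Rose" and "fell" are used for an adjusted p at or under 0.05.

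The arrays separated by time point. On the first principal component, scaled to put the mean of the 3 h arrays at 0 and that of the 6 h arrays at 1, the 6 arrays at 3 h lay between -0.084 and 0.11, and those at 6 h between 0.63 and 1.23. Both 6 h arrays of letter B were the lowest of their groups, at 0.69 in low potassium and 0.63 in GW5074. The mean log2 level of the poly-A spike-in probe sets was 6.52 to 7.05 over the 6 h arrays. At 3 h it was 6.58 and 6.44 in letter A of low potassium and GW5074. Letters B and C had 7.60 to 7.78 at 3 h. The labels do not state whether both times were processed together. The part of such handling in the changes with time was not tested. Markers of other cell types than granule neurons were also bright, with mean intensities of 1863 for Mbp, 1125 for Gfap and 544 for Gad1. Of 12 granule neuron markers, 11 had a probe set and all 11 passed the filter, led by Neurod1 at a mean intensity of 2358. Their summed level was 6949 to 9203 in low potassium at 3 h and 12065 to 13469 at 6 h, and 6607 to 8116 and 11819 to 14769 in GW5074. In low potassium 5 of the 11 rose and 1 fell with time, and in GW5074 10 rose. Sums for the other cell types take in every listed marker with a probe set, also those the filter removed. The brightest markers weigh most in them. These were Mbp (1863) for the oligodendrocyte lineage, Itpr1 (1624) for Purkinje and GABAergic neurons and Pcna (1278) for dividing cells. Summed astrocyte markers (9 of 10 past the filter) went from 3071 to 3813 at 3 h to 4338 to 6688 at 6 h in low potassium and from 3077 to 3439 to 4762 to 5172 in GW5074, and summed oligodendrocyte lineage markers (7 of 10) from 3145 to 3982 down to 2338 to 2537, and from 2677 to 3401 to 1891 to 2788. Microglial markers (6 of 10), endothelial and fibroblast markers (3 of 10), Purkinje and GABAergic markers (7 of 8) and dividing cell markers (5 of 8) had overlapping sums at both times in both cultures. The part of these shifts in the changes with time below was not tested. In cultures of mixed cells, fewer cells of a type and less RNA per cell cannot be told apart.

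Between 3 h and 6 h, 13 of the 32 chromatin genes changed in low potassium and 16 in GW5074. In low potassium 7 rose and 6 fell, where 25.6% of all 10261 genes changed, 11.5% upward and 14.1% downward. In GW5074 10 rose and 6 fell, where 27.6% of all genes changed, 13.5% upward and 14.1% downward. Crebbp, Ep300, Foxp1, Hdac1, Kat2b, Kmt2a and Smarca2 rose in both cultures, and Hdac3, Hdac5, Sirt2 and Sirt5 fell in both. Of the rest, Ncor1 and Rai1 passed the test in low potassium, both lower at 6 h, and Dnmt3a, Kat5, Sin3a (higher), Anp32a and Hdac2 (lower) in GW5074. A gene that passed in 1 culture is not thereby shown to differ between cultures; that difference is the interaction given further on. The median change over the 32 genes was 0.073 in low potassium and 0.13 in GW5074, against -0.044 and -0.016 over all genes. In low potassium 21 of the 32 had no overlap between the 3 h and 6 h arrays (42.3% of all genes), and in GW5074 18 of 32 (43.5%).

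**Figure D1:**
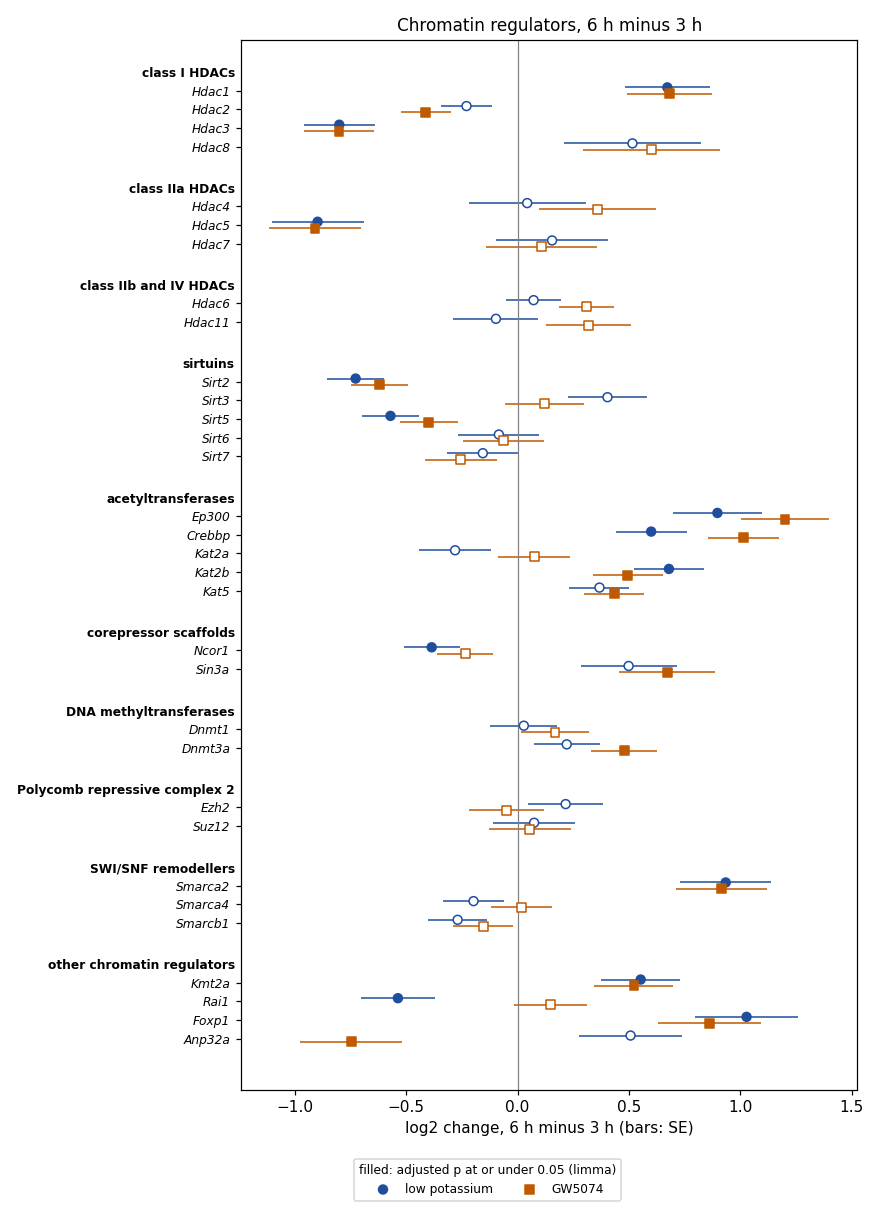
Change from 3 h to 6 h of each chromatin gene, as the difference of mean log2(normalised intensity + 16) on the horizontal axis with its SE, in low potassium (circles) and GW5074 (squares), 3 arrays a group. Filled symbols passed the test; acetyltransferases lie mostly to the right, at up to 1.20 for Ep300 in GW5074, and Hdac3, Hdac5, Sirt2 and Sirt5 lie to the left in both cultures.

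The start regions of 4 of the genes that changed in both cultures are printed here to show the sequence at the start of genes that moved each way: Ep300 and Foxp1, which rose, and Hdac5 and Sirt2, which fell. By the mean of the changes in both cultures they are the most moved pair in each direction with an entry, chromosome 18, which carries Hdac3, left aside. Each runs from 250 bases before to 50 after the annotated start, 5′ to 3′, from RefSeq on build GRCr8, with CG dinucleotides, the sites that Dnmt1 and Dnmt3a methylate, in capitals. Ep300 is at chr7:114987607-114987906, plus strand, Foxp1 at chr4:133353231-133353530, minus strand, Hdac5 at chr10:87688005-87688304, minus strand, and Sirt2 at chr1:93181222-93181521, plus strand.
Ep300: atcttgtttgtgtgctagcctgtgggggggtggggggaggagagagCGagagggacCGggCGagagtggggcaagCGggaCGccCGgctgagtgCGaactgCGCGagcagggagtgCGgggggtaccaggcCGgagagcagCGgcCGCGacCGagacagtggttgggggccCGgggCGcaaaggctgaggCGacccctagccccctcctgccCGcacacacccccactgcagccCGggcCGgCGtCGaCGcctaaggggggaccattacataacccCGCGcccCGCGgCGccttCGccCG
Foxp1: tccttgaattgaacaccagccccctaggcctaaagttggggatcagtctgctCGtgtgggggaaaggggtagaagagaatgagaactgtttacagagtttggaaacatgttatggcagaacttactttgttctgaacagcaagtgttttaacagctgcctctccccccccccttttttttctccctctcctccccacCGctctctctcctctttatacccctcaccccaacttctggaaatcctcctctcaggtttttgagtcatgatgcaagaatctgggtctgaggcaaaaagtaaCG
Hdac5: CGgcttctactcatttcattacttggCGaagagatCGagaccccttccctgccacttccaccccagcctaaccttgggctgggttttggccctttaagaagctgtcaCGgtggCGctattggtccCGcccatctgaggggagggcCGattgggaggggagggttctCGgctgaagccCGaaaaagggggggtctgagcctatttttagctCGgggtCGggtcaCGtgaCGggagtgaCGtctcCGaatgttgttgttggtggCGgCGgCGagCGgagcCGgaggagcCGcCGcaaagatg
Sirt2: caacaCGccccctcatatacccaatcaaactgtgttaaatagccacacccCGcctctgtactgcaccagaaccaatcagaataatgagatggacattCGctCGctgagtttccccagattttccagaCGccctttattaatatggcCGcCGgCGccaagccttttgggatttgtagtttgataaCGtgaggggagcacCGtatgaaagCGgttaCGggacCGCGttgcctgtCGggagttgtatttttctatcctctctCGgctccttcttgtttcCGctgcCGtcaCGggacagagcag
The Ep300 window held 31 CG dinucleotides, which 9.31% of 33469 windows of this length reach, and the windows of Hdac5 and Sirt2 held 22 and 19. Foxp1 had 3, which 77.7% of all windows reach. Of the 35 genes, 30 had an entry, with a median of 23.5 CG dinucleotides against 7 over all windows, and 27 of the 30 were at or above that 7. Genes that rose in both cultures ranged from 3 (Foxp1) to 48 (Crebbp) over 6 entries, and those that fell from 19 (Sirt2) to 26 (Hdac3) over 4, so the ranges overlap. The AP-1 motif TGAGTCA, searched on both strands, was present in 2 of the 30 windows (Foxp1 and Smarcb1), against 4.63% of all windows. The motif TGACGTCA, the full cyclic AMP response element, was in 0 of the 30 and in 1.83% of all. Such matches describe these letters only.

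Among the class I HDACs, the catalytic subunits of the nuclear corepressor complexes, Hdac1 rose and Hdac3 fell in both cultures. Hdac1 read 207, 229 and 165 in low potassium at 3 h and 391, 359.5 and 276 at 6 h, and 235, 179.8 and 163 and 402, 305 and 295 in GW5074. All 6 h arrays were above all 3 h arrays in each culture, a change of 0.67 ± 0.19 (adjusted p = 0.0221) in low potassium and 0.68 ± 0.19 (adjusted p = 0.0187) in GW5074. Its dimmer probe set also rose, by 0.60 (adjusted p = 0.0217) and 0.64 (adjusted p = 0.0144). Hdac3, the catalytic partner of Ncor1, read 488, 563 and 557 against 297, 344 and 284 in low potassium and 606, 537 and 541 against 258, 402 and 334 in GW5074. The highest 6 h array stayed below the lowest 3 h array in both, and the change was -0.80 ± 0.16 (adjusted p = 0.00359) and -0.80 ± 0.16 (adjusted p = 0.00309). Hdac2, the close paralog that shares complexes with Hdac1, had 3 h values of 1370.2, 1473 and 1359.6 in low potassium and 1506, 1516 and 1361 in GW5074. At 6 h they were 1128, 1193 and 1080.4 and 1069, 1200.2 and 907, below every 3 h array in each culture. Hdac2 fell in GW5074, at -0.41 ± 0.11 (adjusted p = 0.0172), and the value in low potassium was -0.23 ± 0.11 (adjusted p = 0.157). The Hdac1 call ended in low potassium without LK 3 h C or LK 6 h A (adjusted p = 0.081 and 0.0916) and in GW5074 without GW 3 h B, GW 3 h C or GW 6 h A (adjusted p from 0.0658 to 0.0944), and the Hdac2 call without GW 3 h A, GW 3 h B or GW 6 h C (adjusted p from 0.0535 to 0.0762). Hdac8, the class I member that works outside these complexes, was dim: it read 44.7, 36.4 and 38.6 and 77.9, 37 and 85.9 in low potassium and 32.5, 29.7 and 31.8 and 54.5, 27.3 and 94.1 in GW5074. In both cultures the 6 h array of letter B lay within or below the 3 h values, and the values of 0.52 ± 0.31 (adjusted p = 0.242) and 0.60 ± 0.31 (adjusted p = 0.167) did not pass.

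Of the class IIa HDACs, the activity-regulated partners of MEF2, Hdac5 fell and the other two measured genes did not pass. Hdac5 went from 236, 297 and 447 to 169, 153 and 189.6 in low potassium and from 269, 352 and 416 to 170.3, 213 and 169 in GW5074. Every 6 h array was lower than every 3 h array, with changes of -0.90 ± 0.21 (adjusted p = 0.00795) and -0.91 ± 0.21 (adjusted p = 0.00667). A second, dim Hdac5 probe set gave -0.35 (adjusted p = 0.4) and -0.65 (adjusted p = 0.11). Hdac4 had 0.043 ± 0.26 (adjusted p = 0.927) in low potassium and 0.36 ± 0.26 (adjusted p = 0.346) in GW5074, and Hdac7 0.15 ± 0.25 (adjusted p = 0.693) and 0.11 ± 0.25 (adjusted p = 0.792). Hdac6, the largely cytoplasmic tubulin deacetylase of class IIb, read 255, 244 and 232 at 3 h and 329, 324 and 319 at 6 h in GW5074, where the arrays did not overlap, but the change of 0.31 ± 0.12 (adjusted p = 0.0837) missed the threshold. In low potassium it was 0.072 ± 0.12 (adjusted p = 0.713). Hdac11, the only class IV enzyme, gave -0.10 ± 0.19 (adjusted p = 0.752) and 0.32 ± 0.19 (adjusted p = 0.243).

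The sirtuins couple deacylation to the NAD supply. Of the 5 measured, Sirt2 and Sirt5 fell with time in both cultures and 3 did not pass. Sirt2, a mainly cytoplasmic deacetylase that is abundant in myelinating cells, read 1161, 1251 and 1139 at 3 h and 644, 780.0 and 659.6 at 6 h in low potassium. In GW5074 it read 1293, 1144 and 1007 and 616, 780.2 and 788. The times did not overlap in either culture, and the changes were -0.73 ± 0.13 (adjusted p = 0.00202) and -0.62 ± 0.13 (adjusted p = 0.00396). Sirt5, the mitochondrial enzyme that removes succinyl and malonyl groups, went from 1050.0, 1154 and 942 to 758, 594 and 731 in low potassium and from 1056, 1199 and 987 to 887, 689.8 and 837 in GW5074. Its times did not overlap either, with -0.57 ± 0.13 (adjusted p = 0.00742) and -0.40 ± 0.13 (adjusted p = 0.0374), the latter call ending without GW 3 h A, GW 3 h B, GW 3 h C, GW 6 h A, GW 6 h B or GW 6 h C (adjusted p from 0.0504 to 0.148). Sirt3, the main mitochondrial deacetylase, was 0.40 ± 0.18 (adjusted p = 0.114) in low potassium, where its 6 h arrays (440.5, 353 and 473) all exceeded the 3 h ones (312, 311 and 286), and 0.12 ± 0.18 (adjusted p = 0.655) in GW5074. The nuclear sirtuins gave -0.084 and -0.062 for Sirt6 and -0.16 and -0.25 for Sirt7, none of which passed. Summed oligodendrocyte lineage markers, given above, were also lower at 6 h in low potassium, while in GW5074 the sums of both times overlapped. Mbp weighs most in these sums, at a mean intensity of 1863, with Cnp next at 537. The part of these markers in the Sirt2 fall was not tested.

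Acetyltransferases passed in the upward direction alone: 3 of 5 rose and 0 fell in low potassium, and 4 of 5 rose and 0 fell in GW5074. Of all genes 11.5% rose and 14.1% fell in low potassium, and 13.5% and 14.1% in GW5074. Ep300, the p300 coactivator, read 152, 168 and 246 in low potassium at 3 h and 342, 313 and 480.4 at 6 h. In GW5074 it went from 137, 145 and 206 to 459, 391 and 376. No 6 h array was as low as any 3 h array of its culture, and the changes were 0.90 ± 0.20 (adjusted p = 0.00663) and 1.20 ± 0.20 (adjusted p = 0.00111), or 1.86-fold and 2.30-fold. Crebbp, the CREB-binding paralog of Ep300, read 181, 165 and 174 against 297, 281 and 273 and, in GW5074, 128, 144 and 200.2 against 377, 290.0 and 380.0. These too were separate, with 0.60 ± 0.16 (adjusted p = 0.0161) and 1.01 ± 0.16 (adjusted p = 0.000811), but 2 other Crebbp probe sets did not pass in either culture. The first gave 0.41 (adjusted p = 0.127) and 0.44 (adjusted p = 0.101), the second, a dim one, 0.75 (adjusted p = 0.188) and -0.015 (adjusted p = 0.982). At 3 h the first read above the chosen one, with means of 188 and 186 against 173 and 157 in low potassium and GW5074. Over the mean of its probe sets, Crebbp passed in neither culture (adjusted p = 0.0501 and 0.0976). Kat2b (PCAF), of the GCN5 family, rose from 278, 271 and 374 to 507, 479 and 549 in low potassium and from 250.5, 296 and 334 to 431, 373 and 512 in GW5074. Its arrays did not overlap, with 0.68 ± 0.16 (adjusted p = 0.00801) and 0.49 ± 0.16 (adjusted p = 0.0337); a dimmer probe set gave 0.57 (adjusted p = 0.241) and 0.64 (adjusted p = 0.186). Kat5 (TIP60), the catalytic subunit of NuA4, was also higher in every 6 h array: it read 348, 312 and 356 and 504, 428 and 423 in low potassium and 359, 318 and 329 and 541, 463 and 411 in GW5074. It passed in GW5074 at 0.43 ± 0.13 (adjusted p = 0.0305) and not in low potassium at 0.37 ± 0.13 (adjusted p = 0.0628). Kat2a (GCN5), the second of its family, gave -0.28 ± 0.16 (adjusted p = 0.229) and 0.075 ± 0.16 (adjusted p = 0.773). Without single arrays, the Crebbp call in low potassium ended without LK 3 h B or LK 6 h A (adjusted p = 0.0642 and 0.0569), the Kat2b call in GW5074 without GW 3 h A, GW 3 h B, GW 6 h A or GW 6 h C (adjusted p from 0.0817 to 0.136) and the Kat5 call without GW 3 h A, GW 3 h B, GW 3 h C or GW 6 h A (adjusted p from 0.0522 to 0.139).

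The corepressor scaffolds hold class I HDACs at their targets. Ncor1, the scaffold of Hdac3, read 631, 646 and 637 at 3 h and 447, 515 and 503 at 6 h in low potassium, with no overlap, and fell by 0.39 ± 0.13 (adjusted p = 0.0406) on the log2 scale. In GW5074 it read 622, 638 and 647 and 487, 640.2 and 528, where array B lay among the 3 h values, at -0.23 ± 0.13 (adjusted p = 0.188). Both other Ncor1 probe sets missed the threshold, and the call ended without GW 3 h A, LK 3 h A, GW 3 h B, LK 3 h B, LK 3 h C, LK 6 h A or LK 6 h C (adjusted p from 0.0531 to 0.129). Sin3a, the scaffold of the Sin3 complex of Hdac1 and Hdac2, read 54.7, 49.7 and 53.9 and 109, 59.1 and 83 in low potassium and 52.3, 56.1 and 66 and 138, 72.9 and 108 in GW5074. Each 6 h array was higher than each 3 h array, letter B least, with 0.50 ± 0.22 (adjusted p = 0.11) and 0.67 ± 0.22 (adjusted p = 0.0351). Its dimmer probe set passed in both cultures, at 0.98 (adjusted p = 0.0101) and 0.85 (adjusted p = 0.0181). The Sin3a call in GW5074 ended without GW 3 h A, GW 3 h B, GW 3 h C, GW 6 h A or GW 6 h C (adjusted p from 0.0523 to 0.165).

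Dnmt3a, a de novo DNA methyltransferase, rose in GW5074 from 118, 104 and 115 to 201, 145 and 170.4, by 0.48 ± 0.15 (adjusted p = 0.0302). In low potassium it read 116, 111 and 104 and 154, 125 and 136, at 0.22 ± 0.15 (adjusted p = 0.303). Its 6 h arrays were above its 3 h arrays in both cultures, a second probe set did not pass in either (0.28 (adjusted p = 0.37) and 0.35 (adjusted p = 0.266)), and the call ended without GW 3 h B, GW 3 h C, GW 6 h A or GW 6 h C (adjusted p from 0.0622 to 0.137). Dnmt1, which copies methylation at replication, gave 0.028 and 0.17. The Polycomb repressive complex 2 genes did not pass either: Ezh2, which methylates histone H3 to silence genes, gave 0.22 in low potassium and -0.05 in GW5074, and its partner Suz12 0.074 and 0.055. A second Ezh2 probe set had means of 50.4 at 3 h and 62.1 at 6 h in low potassium. In GW5074 the means of that probe set were 43.5 and 62.9, upward where the brighter one was near level.

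Smarca2 (BRM) and Smarca4 (BRG1) are the alternative ATPases of the SWI/SNF nucleosome remodeller, and Smarca2 rose while Smarca4 did not pass. Smarca2 read 297, 249.7 and 330.5 and then 615, 431 and 754 in low potassium, and 259, 252 and 297 and then 578, 407 and 678 in GW5074. The lowest 6 h array, letter B in both cultures, was still above every 3 h array, and the changes were 0.93 ± 0.21 (adjusted p = 0.00628) and 0.91 ± 0.21 (adjusted p = 0.00625). Its dimmer probe set rose by 1.20 (adjusted p = 0.00284) and 1.26 (adjusted p = 0.00177). Smarca4 read 498, 579.8 and 673 and 505, 491 and 530.2 in low potassium and 484, 563 and 631 and 589.6, 540.0 and 593 in GW5074. Its times overlapped in both cultures, at -0.20 ± 0.14 (adjusted p = 0.314) and 0.018 ± 0.14 (adjusted p = 0.938), and its other probe sets did not pass. The difference between both genes' changes was not itself tested. Smarcb1, the core subunit, gave -0.27 ± 0.13 (adjusted p = 0.161) and -0.15 ± 0.13 (adjusted p = 0.431).

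Kmt2a (MLL1), which methylates histone H3 at active promoters, went from 119, 123 and 146 to 235, 199.6 and 183 in low potassium and from 138, 98.7 and 156 to 224, 167 and 222 in GW5074. The arrays did not overlap, and the rises were 0.55 ± 0.18 (adjusted p = 0.0383) and 0.52 ± 0.18 (adjusted p = 0.0446). Its dimmer probe set gave 0.48 (adjusted p = 0.184) and 0.11 (adjusted p = 0.785), and the calls ended in low potassium without LK 3 h A, LK 3 h B, LK 6 h A, LK 6 h B or LK 6 h C (adjusted p from 0.0529 to 0.135) and in GW5074 without GW 3 h A, LK 3 h A, GW 3 h B, LK 3 h B, GW 6 h A or GW 6 h C (adjusted p from 0.0544 to 0.205). Foxp1, a forkhead repressor that recruits deacetylase complexes, had a tight 3 h level of 83.9, 88.3 and 87.4 in low potassium and 85.9, 98.8 and 107 in GW5074. At 6 h it read 181, 153 and 293 and 150.2, 180.3 and 280.2, with letter C highest in both. That was 1.03 ± 0.23 (adjusted p = 0.00687) in low potassium and 0.86 ± 0.23 (adjusted p = 0.0153) in GW5074, the latter call ending without GW 3 h A or GW 6 h C (adjusted p = 0.0532 and 0.0736). Of 3 other Foxp1 probe sets past the filter, 1 rose in both cultures (0.98 (adjusted p = 0.0128) and 1.06 (adjusted p = 0.00776)), 1 passed in GW5074 (0.75 (adjusted p = 0.0581) and 0.83 (adjusted p = 0.0363)) and 1 in neither.

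**Figure D2:**
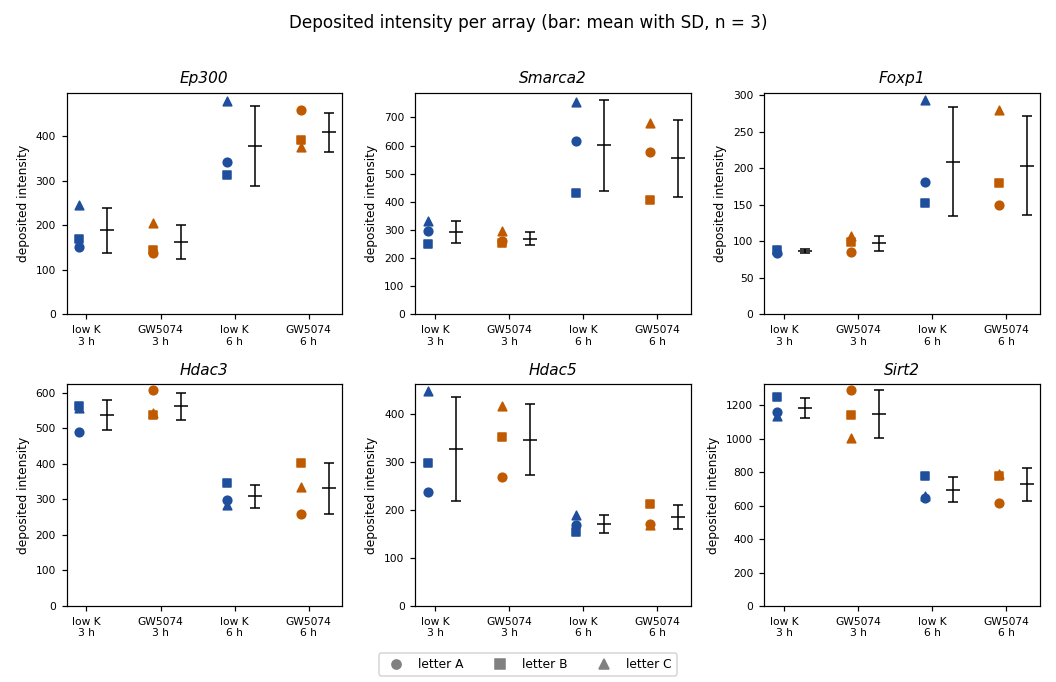
Deposited intensity per array (linear axis from 0) of 3 genes that rose and 3 that fell from 3 h to 6 h, in low potassium (blue) and GW5074 (orange), with the marker shape giving the letter and the bar the mean with SD of 3 arrays. In every panel the 6 h points of a culture lie wholly to one side of its 3 h points; for Ep300 in GW5074 that is 137 to 206 against 376 to 459.

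Smarca2, Ep300, Hdac3, Hdac5 and Sirt2 passed in both cultures without any single array of the 12. In all, 8 of the 13 low-potassium calls and 6 of the 16 GW5074 calls held in all 12 such fits. The number of genes called went down to 8 without LK 6 h A and to 7 without GW 3 h B; without GW 3 h A, GW 3 h C, GW 6 h A or GW 6 h C the GW5074 count was 9, 10, 8 and 8. Without both 6 h arrays of letter B, the pair nearest the 3 h arrays, it was 16 in low potassium and 17 in GW5074. Calls over all 18625 probe sets moved the same way. Without LK 6 h A they went from 4223 to 2584 in low potassium. Without GW 3 h B they went from 4664 to 2681 in GW5074. With both 6 h arrays of letter B left out they were 5549 and 5839.

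Partners of these genes were read from 8 lists that hold none of them. Genes named from a list are among the 2 with its smallest p, so they are not typical of it. Over all genes 25.6% changed in low potassium (11.5% up, 14.1% down) and 27.6% in GW5074 (13.5% up, 14.1% down). The share of a list that changed ran from 22.2% (DNA methylation genes) to 41.7% (corepressor subunits) in low potassium and from 21.9% (histone methyltransferases) to 55.6% (DNA methylation genes) in GW5074. Histone methyltransferases (25.0%) and remodellers (27.0%) lay near the share of all genes in low potassium, and no list was tested against the rest. Corepressor complex subunits had 7 risen and 3 fallen of 24 in low potassium, and 7 and 2 in GW5074: the Sin3 subunit Arid4b rose by 0.87 ± 0.16 (adjusted p = 0.00253) and 0.62 ± 0.16 (adjusted p = 0.013), and the scaffold Sin3b, paralog of Sin3a, changed by -0.62 ± 0.15 (adjusted p = 0.00907) and -0.77 ± 0.15 (adjusted p = 0.00252). Other acetyltransferases and acetyl readers had 5 risen and 2 fallen of 23, and 5 and 3, with the bromodomain scaffold Brpf1 at 1.11 ± 0.21 (adjusted p = 0.00305) and 1.27 ± 0.21 (adjusted p = 0.00114). Among remodeller genes 6 rose and 4 fell of 37 in low potassium, and 9 rose and 3 fell in GW5074. There the SWI/SNF subunit Arid1a rose by 0.56 ± 0.13 (adjusted p = 0.00701) and 0.87 ± 0.13 (adjusted p = 0.000506), while Ruvbl2, an ATPase of the INO80 and NuA4 complexes, changed by -1.19 ± 0.16 (adjusted p = 0.000493) and -1.36 ± 0.16 (adjusted p = 0.000164). Histone demethylases had 7 risen and 1 fallen of 20, and 9 and 1. Their median changes were 0.43 and 0.47, against -0.044 and -0.016 over all genes; Kdm2a rose by 0.70 ± 0.16 (adjusted p = 0.00705) and 0.84 ± 0.16 (adjusted p = 0.00212). Histone methyltransferases had 3 risen and 5 fallen of 32, and 2 and 5, including Dot1l, which methylates the histone H3 core, at -1.07 ± 0.17 (adjusted p = 0.00114) and -1.10 ± 0.17 (adjusted p = 0.000758). Kmt2e of the same list rose by 0.61 ± 0.17 (adjusted p = 0.0214) and 0.85 ± 0.17 (adjusted p = 0.00347). Other Polycomb genes had 6 risen and 2 fallen of 22, and 7 and 3, with Phc1 at -0.90 ± 0.15 (adjusted p = 0.0017) and -0.55 ± 0.15 (adjusted p = 0.0194). Pcgf2 of that list rose in GW5074, by 1.12 ± 0.19 (adjusted p = 0.0012), and gave 0.48 ± 0.19 (adjusted p = 0.082) in low potassium. DNA methylation genes and readers had 2 risen of 9 in low potassium, and 4 risen and 1 fallen in GW5074, with the demethylating oxygenase Tet1 at 0.79 ± 0.19 (adjusted p = 0.00906) and 0.93 ± 0.19 (adjusted p = 0.00328). Close relatives and binding partners had 0 risen and 4 fallen of 12, and 1 and 3: Mef2c, a target of class IIa HDACs, changed by -1.26 ± 0.29 (adjusted p = 0.00761) and -1.29 ± 0.29 (adjusted p = 0.00602), and the 14-3-3 protein Ywhaz, which retains phosphorylated class IIa HDACs in the cytoplasm, by -0.53 ± 0.12 (adjusted p = 0.00721) and -0.48 ± 0.12 (adjusted p = 0.0103).

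**Figure D3:**
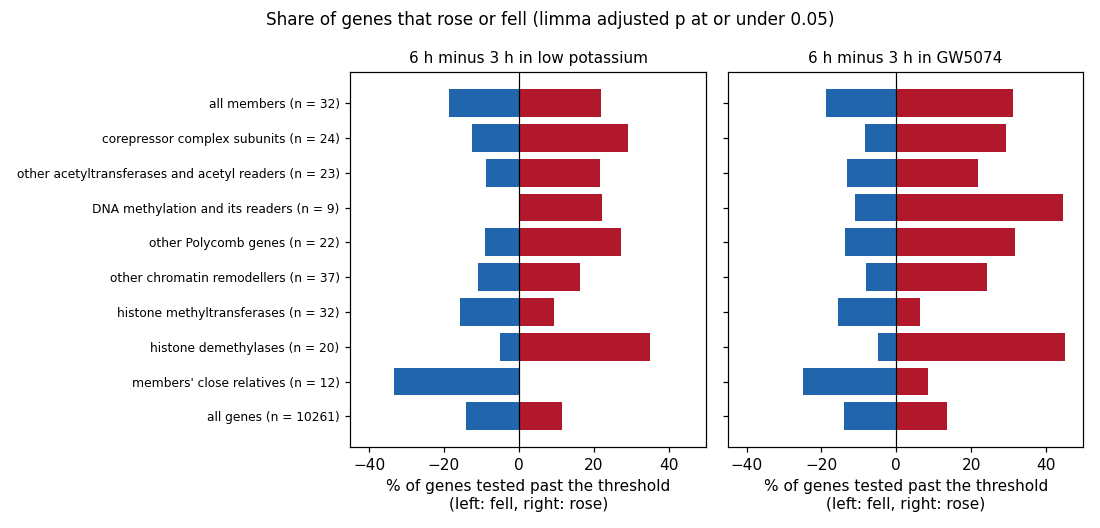
Percentage of the genes tested in each list that rose (right, red) or fell (left, blue) from 3 h to 6 h, in low potassium and GW5074, with all 10261 genes at the bottom. The histone demethylases reach farthest right, with 7 of 20 and 9 of 20 risen, and the close relatives farthest left, with 4 of 12 and 3 of 12 fallen.

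Few of these genes differed between GW5074 and low potassium beyond the spread of the arrays. In the fit without pairs, 0 of 32 passed at 3 h or at 6 h, nor did any of all 10261 genes (0%); at an unadjusted p under 0.05 there were 1 (Anp32a) at 3 h, where 1.27% of all genes had one, and 3 (Hdac4, Kat2a and Rai1) at 6 h, where 4.74% did. Arrays of the same letter deviated together within each time, so the letter was also used as a pair. In that paired fit 0 of the 32 passed at 3 h, where 0.00975% of all genes did; at an unadjusted p under 0.05 there was 1, Anp32a, against 5.77% of all genes. At 6 h Rai1 and Kat2a rose, 2 of 32, where 1.94% of all genes passed and 1.09% rose. There 7 had an unadjusted p under 0.05 (these 2, Hdac4, Sirt5, Kat2b, Dnmt3a and Anp32a), against 16.7% of all genes. Earlier results of these data had named Rai1 and Anp32a. Counts here and below that include either gene are therefore not independent of how the genes were chosen. The differences over the 32 genes ran from -0.24 to 0.89 at 3 h, with a median of 0.013 (-0.0094 over all genes), and from -0.37 to 0.71 at 6 h, with a median of 0.081 (0.015 over all genes). No overlap between the treatments was seen for 5 of 32 genes at 3 h (7.30% of all genes) and for 4 at 6 h (9.26%): Anp32a, Ezh2, Hdac8, Sin3a and Sirt7 at 3 h (Ezh2, Sin3a and Sirt7 overlap as deposited), and Hdac6, Kat2a, Rai1 and Smarca4 at 6 h. Errors and adjusted p in the next paragraphs are those of the paired fit unless said otherwise.

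**Figure D4:**
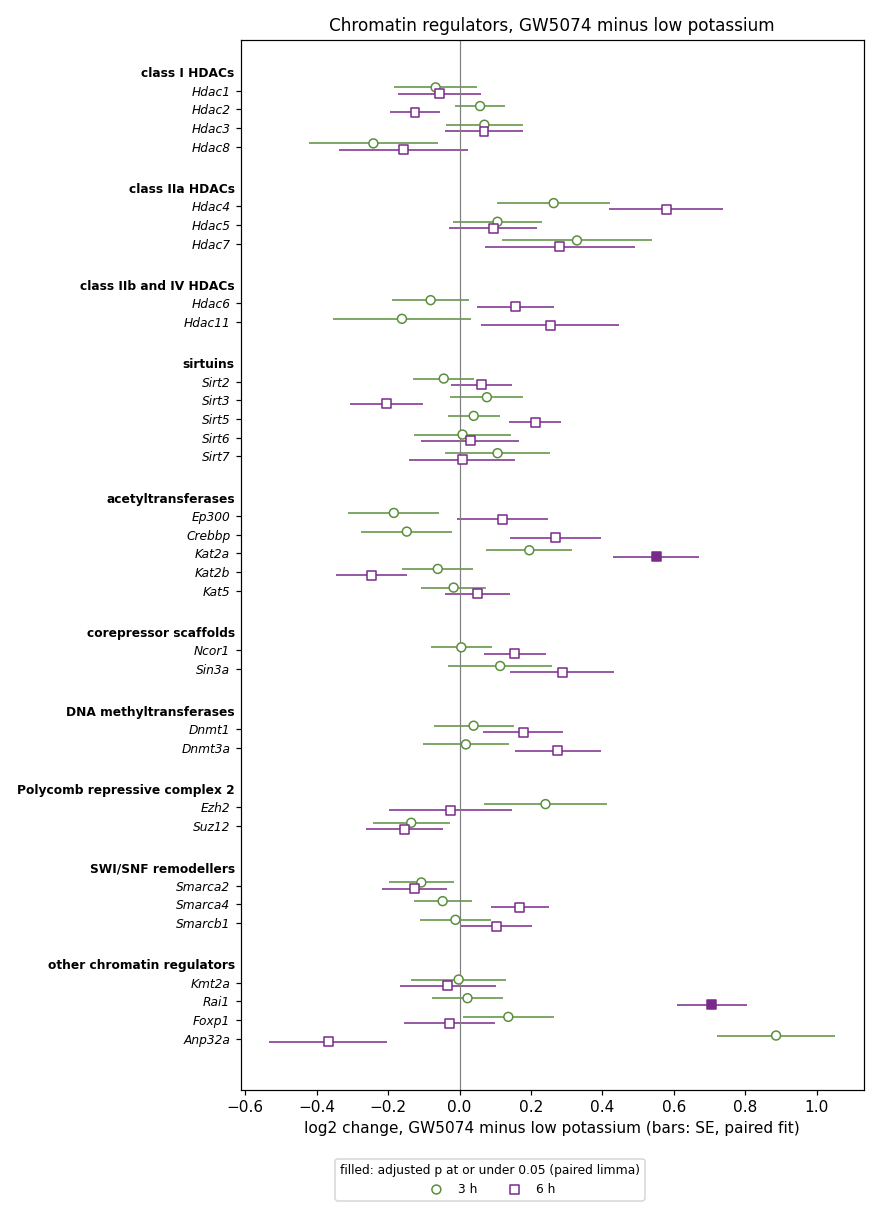
Difference between GW5074 and low potassium for each chromatin gene on the log2 scale, with the SE of the paired fit, at 3 h (circles) and 6 h (squares), 3 arrays a group. Filled symbols passed the test, which only Rai1 (0.71) and Kat2a (0.55) did, both at 6 h; Anp32a has the largest 3 h value, 0.89, unfilled.

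Rai1 encodes a nuclear protein that reads chromatin and is dosage-sensitive in brain development. In low potassium it read 414, 433 and 514 at 3 h and 289, 354 and 307 at 6 h; with GW5074 it read 416, 401 and 573 and 532, 591 and 445. The 3 low-potassium arrays at 6 h were the lowest of all 12, and the other groups overlapped one another. At 6 h the pair differences were 0.86, 0.73 and 0.52 (A, B, C), giving 0.71 ± 0.10 (adjusted p = 0.00166), or 1.63-fold; without pairs the adjusted p was 0.541. The call at 6 h held without each of the 6 pairs and ended in the paired fit without a mean-variance trend (adjusted p = 0.124). At 3 h the pair differences were -0.014, -0.11 and 0.19, giving 0.022 ± 0.10 (adjusted p = 0.984). The change of the effect between times was 0.68 ± 0.14 (adjusted p = 0.0555) and did not pass. Averaged over both times the difference was 0.36 ± 0.07 (adjusted p = 0.0468), 1 of 32 genes, where 0.224% of all passed and 0.0487% rose. That averaged call ended without 3 h pair A, 6 h pair A, 3 h pair B, 6 h pair B or 3 h pair C (adjusted p from 0.0935 to 0.206), and without pairs the adjusted p was 1. It also ended with pairs as a random effect and in the paired fits with pseudocount 1, no filter or no trend. In all the averaged call held in 5 of 14 paired settings, with an adjusted p from 0.0603 to 0.387 where it ended. Over time Rai1 fell in low potassium, at -0.54 ± 0.16 (adjusted p = 0.0317) in the fit without pairs, and was 0.15 ± 0.16 (adjusted p = 0.555) in GW5074; the fall ended without LK 3 h A, LK 3 h B, LK 3 h C, LK 6 h A or LK 6 h C (adjusted p from 0.0505 to 0.108). The low-potassium arrays at 6 h thus enter both the fall with time and the treatment difference, which are not independent results.

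Kat2a (GCN5), the acetyltransferase of the SAGA coactivator complex, read 144, 156 and 118 in low potassium against 206, 217 and 214 with GW5074 at 6 h. The treatments did not overlap there, and the GW5074 arrays lay close together. Pair differences were 0.46, 0.43 and 0.77, giving 0.55 ± 0.12 (adjusted p = 0.0283), or 1.46-fold; without pairs the adjusted p was 0.906. At 3 h it read 181, 149 and 161 and 228, 151 and 199, overlapping, at 0.20 ± 0.12 (adjusted p = 0.872). The 6 h call ended without 6 h pair A, 6 h pair B or 6 h pair C (adjusted p from 0.0549 to 0.151) and in the paired fits with no filter (0.0642) or no trend (0.184). Its paralog Kat2b pointed the other way at 6 h, at -0.25 ± 0.10 (adjusted p = 0.224), without passing. Signs of RNA quality and handling also separated the treatments at 6 h. The log2 difference between 3′ and 5′ actin probe sets was 0.971 to 1.02 in low potassium and 1.06 to 1.16 in GW5074, and the mean log2 level of the poly-A spike-in probe sets was 6.69 to 7.05 and 6.52 to 6.56, both without overlap. The GAPDH difference overlapped at 6 h (0.0957 to 0.188 and 0.145 to 0.162), and all 3 measures overlapped at 3 h. Their part in the Rai1 and Kat2a results was not tested.

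Anp32a (PP32) is a subunit of the INHAT complex, which masks histone tails from acetyltransferases. With 1 probe set a gene, it had the highest positive difference of all 10261 genes at 3 h, 0.89. Over all 18625 probe sets the highest was 1.01. Earlier results of these data had named Anp32a, so this rank is not independent of its choice. Anp32a read 923, 829 and 990.1 in low potassium at 3 h against 1152, 2035 and 2281 with GW5074. There B and C were well above A, and A was still above all low-potassium arrays. The poly-A spike-in level at 3 h also split by letter. It was 6.58 and 6.44 in A of low potassium and GW5074, and 7.60 to 7.78 in B and C. Its part in the Anp32a values was not tested. At 6 h Anp32a read 1006, 1163 and 1676 in low potassium against 989, 1116 and 886 with GW5074, overlapping, with C the high array in low potassium. Pair differences were 0.29, 1.18 and 1.20 at 3 h, giving 0.89 ± 0.17 (adjusted p = 0.185), and -0.05, -0.068 and -0.98 at 6 h, giving -0.37 ± 0.17 (adjusted p = 0.282). Neither passed, but the change of the effect from 3 h to 6 h did, at -1.25 ± 0.23 (adjusted p = 0.0459), 1 of 32 genes, where 0.166% of all genes passed and 0.0682% in this direction. Without pairs it was not called (adjusted p = 1). That call ended without 6 h pair A, 3 h pair B, 3 h pair C or 6 h pair C (adjusted p from 0.0743 to 0.202) with pairs as a random effect (0.16), and in the paired fits with pseudocount 1 (0.0643), no filter (0.137) or no trend (0.329). Without 3 h pair A or 6 h pair C, Anp32a passed at 3 h. Its fall with time in GW5074, -0.75 ± 0.23 (adjusted p = 0.0289), was called although the normalised values overlapped (the deposited ones did not), and it ended without GW 3 h B, GW 3 h C, GW 6 h A or GW 6 h C (adjusted p from 0.0825 to 0.114); in low potassium the value was 0.51 ± 0.23 (adjusted p = 0.125).

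**Figure D5:**
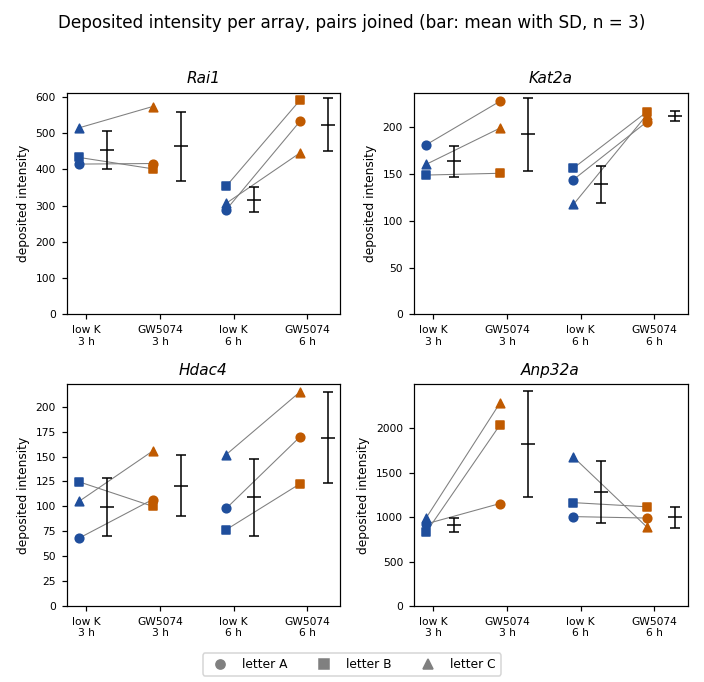
Deposited intensity per array (linear axis from 0) of Rai1, Kat2a, Hdac4 and Anp32a, with grey lines joining low-potassium and GW5074 arrays of the same letter and time, and bars giving the mean with SD of 3 arrays. All 3 lines slope up at 6 h for Rai1, Kat2a and Hdac4; for Anp32a all 3 slope up at 3 h and none at 6 h.

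Hdac4, a class IIa enzyme enriched in brain, came next. It read 98, 76.7 and 152 in low potassium at 6 h against 169.8, 123 and 215 with GW5074, with pair differences of 0.71, 0.58 and 0.45. The groups overlapped while every pair difference was positive, and 0.58 ± 0.16 (adjusted p = 0.0754) missed the threshold. At 3 h it read 68.1, 125 and 105 and 107, 100.1 and 156, at 0.26 ± 0.16 (adjusted p = 0.866). The dim Hdac7, of the same class, read 17.4, 28.1 and 45.5 and 35.3, 33.2 and 53.5 at 3 h and 31.1, 32 and 36.8 and 43.2, 31.7 and 54.4 at 6 h. Its values were 0.33 ± 0.21 (adjusted p = 0.88) and 0.28 ± 0.21 (adjusted p = 0.55). Hdac5 gave 0.11 ± 0.12 (adjusted p = 0.939) at 3 h and 0.095 ± 0.12 (adjusted p = 0.764) at 6 h, with neither past the threshold. Among class I genes the values with the smallest p were those of Hdac8 at 3 h, -0.24 ± 0.18 (adjusted p = 0.904), and Hdac2 at 6 h, -0.12 ± 0.07 (adjusted p = 0.408). Hdac1 and Hdac3 lay between -0.067 and 0.069 at both times. Hdac6 read 0.16 higher with GW5074 at 6 h without overlap, though not past the threshold (adjusted p = 0.516), and Hdac11, at 41.1, 33.7 and 35.2 and 51.1, 36.9 and 49.2, gave 0.25 ± 0.19 (adjusted p = 0.561).

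Sirt5 had even pair differences at 6 h, at 0.20, 0.21 and 0.22, but 0.21 ± 0.072 (adjusted p = 0.15) did not pass. The other sirtuins lay between -0.20 (Sirt3) and 0.06 (Sirt2) at 6 h. At 3 h Sirt7 read 80.6, 82 and 75 in low potassium against 81.2, 83.1 and 94.8 with GW5074, which overlap as deposited and are separate only after normalisation, at 0.11 ± 0.15 (adjusted p = 0.957). Ep300 and Crebbp gave -0.18 and -0.15 at 3 h and 0.12 and 0.27 at 6 h, none past the threshold. Their changes of effect between the times were 0.30 ± 0.18 (adjusted p = 0.497) and 0.42 ± 0.18 (adjusted p = 0.327), so the larger rise with time in GW5074 was not shown to differ from that in low potassium. Sin3a gave 0.11 ± 0.15 (adjusted p = 0.953) and 0.29 ± 0.15 (adjusted p = 0.35), Ncor1 0.0048 and 0.15, and Dnmt3a 0.27 ± 0.12 (adjusted p = 0.27) at 6 h. Dnmt1 read 202, 177 and 188 and 216, 203 and 171 at 3 h, at 0.039 ± 0.11 (adjusted p = 0.974). Ezh2 read 54.4, 49.4 and 46 in low potassium against 53.1, 74.1 and 58.1 with GW5074 at 3 h, at 0.24 ± 0.17 (adjusted p = 0.889), with overlap at 6 h. A second Ezh2 probe set pointed the other way at 3 h, with means of 50.4 in low potassium and 43.5 with GW5074. Suz12 read 303, 358 and 330.5 and 325, 305 and 275 at 6 h, at -0.16 ± 0.11 (adjusted p = 0.518). The SWI/SNF genes stayed between -0.13 (Smarca2) and 0.17 (Smarca4), Foxp1 and Kmt2a between -0.03 and 0.14, at both times.

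Of the 8 partner lists, 2 held a gene that passed at 6 h in the paired fit. These were the nuclear receptor coactivator Ncoa6, 1 of 23 genes of its list, at 0.42 ± 0.10 (adjusted p = 0.0417), and Ywhae, a 14-3-3 protein that binds class IIa HDACs, 1 of 12, at 0.22 ± 0.053 (adjusted p = 0.0425). Of all genes 1.94% passed in that fit at 6 h, and no list was tested against the rest. The 6 other lists, of 9 to 37 genes, had 0 genes past the threshold in either direction at 6 h, and all 8 had 0 at 3 h. Among those that did not pass, Chd4, the ATPase of the NuRD deacetylase complex, gave 0.32 ± 0.092 (adjusted p = 0.0908), and the SWI/SNF subunit Smarcc2 0.34 ± 0.10 (adjusted p = 0.0817).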

How the data were processed

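The values table deposited by the authors gives a linear intensity for each of 31099 rat probe sets (Affymetrix) on 12 arrays; each array has the same trimmed mean (150, leaving out 2% at each end), so the deposited intensities had been scaled. How probes were summarised is not stated in the labels. Symbols were taken from the platform table: 20826 non-control probe sets had 1 symbol, 436 several and 9780 none. The 57 control probe sets were left out, the rest were quantile-normalised, 16 was added and log2 taken; probe sets with a mean under the 40th percentile were removed. Linear models with moderated tests (limma 3.58.1, R 4.3.3, mean-variance trend, two-sided) estimated 4 group means without a block (8 residual degrees of freedom), and, as an alternative, with the letter within a time as a pair (4 degrees of freedom). The letters are in the labels, and pairing was judged from the data: same-letter deviations correlated at 0.425, 0.21 and 0.542 at 3 h and 0.293, 0.65 and 0.572 at 6 h. Among the GW5074 arrays of its time, each low-potassium array matched that of its own letter best. The match in the other direction was not computed. Across times the same letter gave -0.067 to 0.18, so times were not paired. The highest correlation between arrays was 0.984; none was a duplicate. Genes given per array are those that passed in any comparison, with or without pairs, and Rai1 and Anp32a. Added to these is the gene of each role with the smallest p for treatment at each time. Up to 2 genes per partner list and kind of comparison may be named. They are those with the smallest p in these same comparisons, so they are the extremes of their lists. Members and lists were chosen with earlier results of these data known. Precision is limited by the 3 arrays of each group. The model code was tested on simulated data. Figures were drawn with matplotlib 3.10.9.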

Additional observations from a re-analysis of the deposited data

Results flagged for a closer look

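Anp32a was higher with GW5074 at 3 h and lower at 6 h in every pair, though neither difference passed on its own (limma with pairs, adjusted p = 0.185 and 0.282). The difference from low potassium on the log2 scale was 0.89 at 3 h and -0.37 at 6 h, and the test of the difference between them gave -1.25 (limma with pairs, adjusted p = 0.0459). The 6 h pair differences were -0.05, -0.068 and -0.98 (A, B, C), so the 6 h value rests on pair C. The call ended without 6 h pair A, 3 h pair B, 3 h pair C or 6 h pair C (adjusted p from 0.0743 to 0.202), and with pairs as a random effect (0.16). It also ended in the paired fits with pseudocount 1 (0.0643), no filter or no mean-variance trend (0.329). In all it held in 6 of 14 paired settings, and it was not called without pairs. Earlier results of these data had named Anp32a, so this result is not independent of how the gene was chosen.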

How the results depend on the processing

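With 3 arrays a group and probe sets as dim as those of Hdac7, Hdac8, Hdac11 and Ezh2, small changes could not be shown. No called gene changed direction under any alternative run. Leaving out 1 array at a time, the number of chromatin genes called over time ran from 8 to 14 in low potassium and from 7 to 17 in GW5074; the other alternatives for these counts, replicate block by letter included (14 and 16), stayed within 1.5 times of 13 and 16. Over all 18625 probe sets the runs without 1 array called 2193 to 4958 in low potassium and 2457 to 5365 in GW5074. For treatment, 0 genes passed without pairs. With the replicate block 2 passed at 6 h, 1 on average over times and 1 in the interaction; with pairs as a random effect 2 passed at 6 h. Leaving out 1 pair at a time, the blocked counts ran from 1 to 3 at 6 h (3 without 3 h pair B, Hdac4 added), 0 to 1 at 3 h, 0 to 1 on average and 0 to 1 in the interaction. Further paired settings were chosen after seeing the data. At 6 h they gave 2 with no quantile normalisation, pseudocounts 1 and 64 or a filter at the 60th percentile, and 1 (Rai1) with no filter. On average over times 1 passed with no quantile normalisation, pseudocount 64 and the stricter filter. In the interaction these gave 1, 1 and 2 (Anp32a, with Rai1 added under the stricter filter). The paired fit with no mean-variance trend called 0 chromatin genes in each treatment comparison; the cause was not tested.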

Other observations

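Hdac10, left out of the tests, had 4 dim probe sets whose median intensities over the 12 arrays were 26.5, 20.9, 10.7 and 2.95, the highest single value being 46.3. The title of the GW5074 array A at 6 h carries a suffix that differs from that of the other 11, with no meaning given in the labels.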
